A study of Caenorhabditis elegans with 12 samples.

Results

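The genes described here are 8 *C. elegans* genes of the CUB-like family. They are *irg-4*, *irg-5* and *irg-6*, which carry infection response names, *dod-17*, *dod-21*, *dod-22* and *dod-24*, which are named after DAF-16, and F55G11.2, which has neither name. They were chosen by a fixed list, with earlier results of these same arrays in view, so their levels and differences are given as a description. No p-value is printed for them. Where calls among them are counted, the counts are a description too and no test of these genes. For each gene the brightest array probe set annotated with exactly 1 gene symbol was read. This left 7 of the 8 genes, among 25478 genes with such a probe set and 29317 probe sets in all. Both probe sets that carry *dod-21* also carry the neighbouring gene *cld-1*, and *dod-21* therefore has no value of its own.

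The arrays came from L3 larvae of the N2 strain grown at 20 °C and fed bacteria that produce double-stranded RNA. Control animals received the empty vector pL4440, and the other groups received bacteria directed against *nuo-5*, which encodes a subunit of mitochondrial respiratory Complex I. Mild suppression was obtained in the parental generation and strong suppression in the filial generation. The strength of the knockdown and the generation therefore cannot be told apart. The study describes the cohorts as matched by stage and the strong larvae as arrested in development. Arrest thus cannot be told apart from the strength of the knockdown either. Each group had 4 arrays, numbered I, III, IV and V. The plate note of the labels names lutein or its solvent DMSO without saying which a sample received, and the sample names mention neither. Larvae were extracted whole.

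CUB-like proteins of this family are predicted to be secreted, and many of their genes are expressed in the intestine, the main surface at which the worm meets bacteria. The *irg* genes (infection response genes) were named for their induction by *Pseudomonas aeruginosa*, and several of them depend on the p38 MAP kinase PMK-1, which acts below the adaptor TIR-1 and the kinases NSY-1 and SEK-1 and signals to the transcription factor ATF-7. The *dod* genes (downstream of DAF-16) were named for their response to the FOXO factor of the insulin pathway. *dod-17*, *dod-21*, *dod-22* and *dod-24* belong to the class that is repressed when insulin signalling is low, and *dod-3* and *dod-6* to the class that is activated.

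The target gene was checked first. On the RMA log2 scale, in which 1 unit is a doubling, *nuo-5* measured 8.29, 8.56, 8.43 and 8.42 on control arrays I, III, IV and V. It measured 7.15, 7.56, 7.25 and 7.66 under mild RNAi and 6.95, 7.09, 7.22 and 6.89 under strong RNAi. All arrays of both RNAi groups lay below all control arrays. The log2 fold change against control was −1.02 under mild RNAi (SE 0.14, limma adjusted p = 0.047) and −1.39 under strong RNAi (SE 0.14, adjusted p = 0.00015). The mild call is close to the threshold of 0.05, and its adjusted p ranged from 0.039 to 0.995 over the alternatives tried. Strong against mild RNAi gave a log2 fold change of −0.37, which did not pass (limma adjusted p from 0.068 to 0.29 over the alternatives). Those groups overlapped, as strong array IV (7.22) lay above mild array I (7.15). Array medians lay between 3.41 and 3.57, and arrays of 1 group correlated at 0.960 or more.

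Under strong *nuo-5* RNAi 6 of the 7 measured genes had a lower mean than in control, and only *dod-22* had a higher one. The largest differences were those of *irg-5* and F55G11.2, whose strong means were 7.10% and 13.9% of control. *irg-4* and *dod-24* came next, at 32.4% and 39.3% of control, with wide spread between arrays. *dod-17* stood at 71.7%, *irg-6* at 93.5% and *dod-22* at 144%. In the plot of values by array the group means of *irg-4*, *irg-5*, *dod-24* and F55G11.2 step down from control through mild to strong. Without mild array III the mild means of *irg-4*, *irg-5* and *dod-24* were not below control. Because whole larvae were used, fewer cells of a type and less RNA per cell cannot be told apart.

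**Figure D1:**
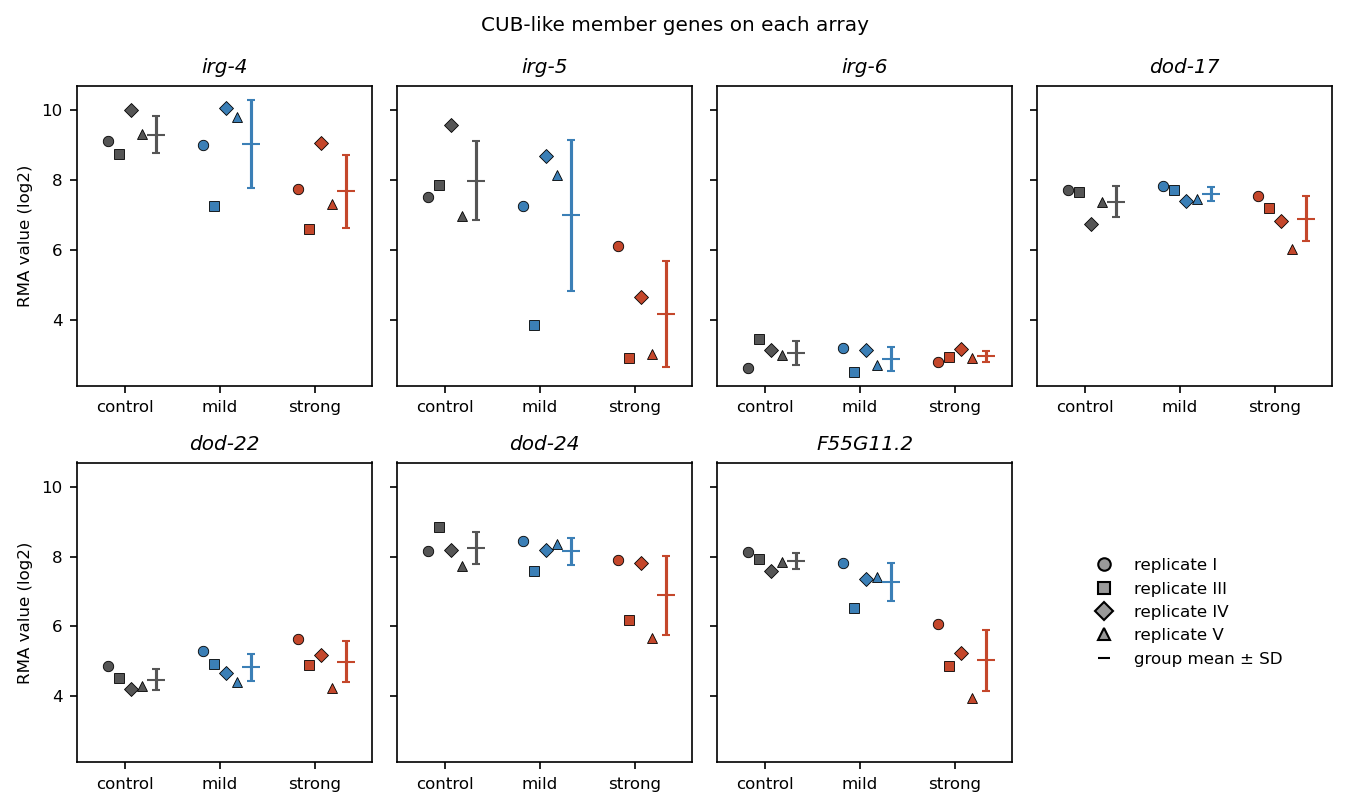
RMA values (log2, vertical axis) of the 7 measured genes on each of the 12 arrays, grouped as control, mild and strong *nuo-5* RNAi; symbols give the replicate number and horizontal marks the group mean with SD (n = 4). The strong arrays of *irg-5* (2.90 to 6.10) and F55G11.2 (3.94 to 6.06) lie below every control array, and mild array III is low for *irg-4*, *irg-5*, *dod-24* and F55G11.2.

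*irg-5* (F35E12.5, chromosome V) is an infection response gene widely used as a readout of PMK-1 signalling. It measured 7.52, 7.87, 9.57 and 6.97 on the control arrays, 7.25, 3.86, 8.69 and 8.15 on the mild arrays, and 6.10, 2.90, 4.65 and 3.02 on the strong arrays. The strong arrays all lay below the control arrays, while mild array III lay among the strong arrays and the other mild arrays among the control arrays. The means were 7.98 ± 1.12 (SD, n = 4) in control, 6.99 ± 2.17 under mild and 4.17 ± 1.52 under strong RNAi, and the log2 fold change of strong against control was −3.82 (SE 1.00). The order control, mild, strong held for the means, but the control and mild means differed by less than the spread within either group. The lowest values, 2.90 and 3.02, are near or below 3.01, the 40th percentile of all values on these arrays, so the size of the fold is poorly resolved at its lower end.

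F55G11.2 (chromosome IV), a gene of the same family named only by its position on a cosmid clone, gave tighter groups. It measured 8.14, 7.92, 7.59 and 7.86 on the control arrays, 7.81, 6.53, 7.34 and 7.41 on the mild arrays, and 6.06, 4.86, 5.24 and 3.94 on the strong arrays. Every strong array lay below every mild array, and the mild arrays overlapped the control arrays only through array I. The means were 7.88 ± 0.23, 7.27 ± 0.54 and 5.03 ± 0.88 (SD, n = 4 each). The log2 fold change was −2.85 for strong against control, −2.25 for strong against mild and −0.60 for mild against control (SE 0.38 each).

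*irg-4* (F08G5.6, chromosome IV), another infection response gene, measured 9.12, 8.74, 10.02 and 9.33 in control, 9.02, 7.25, 10.07 and 9.79 under mild RNAi, and 7.73, 6.59, 9.06 and 7.33 under strong RNAi. The strong mean of 7.68 ± 1.04 was lower than the control mean of 9.30 ± 0.53 (log2 fold change −1.63, SE 0.60), but strong array IV lay above control array III. Within each of the 3 groups array III was the lowest and array IV the highest. The mild mean, 9.03 ± 1.27, differed from control by less than either spread (log2 fold change −0.27, SE 0.60).

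*irg-6* (C32H11.1, chromosome IV) was dim throughout. Its values ran from 2.63 to 3.44 in control, from 2.50 to 3.18 under mild and from 2.78 to 3.17 under strong RNAi, and its mean over all arrays, 2.96, was the only one of the 7 below the 40th percentile. The log2 fold change of strong against control was −0.097 (SE 0.19), and a difference was not detectable at this signal.

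Of the *dod* genes, *dod-24* (C32H11.12) showed the larger difference. It measured 8.15, 8.86, 8.20 and 7.74 in control, 8.45, 7.58, 8.20 and 8.35 under mild RNAi, and 7.90, 6.18, 7.80 and 5.67 under strong RNAi. The strong arrays fell apart into I and IV, which lay within the control range, and III and V, which lay well below it. The means were 8.24 ± 0.46, 8.15 ± 0.39 and 6.89 ± 1.13, and the log2 fold change of strong against control was −1.35 (SE 0.45). Control and mild were within their spread of each other, at −0.092 (SE 0.45).

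*dod-17* (K10D11.1) differed little. It measured 7.72, 7.65, 6.75 and 7.38 in control, 7.83, 7.71, 7.40 and 7.46 under mild RNAi, and 7.54, 7.19, 6.83 and 6.02 under strong RNAi. Only strong array V lay below all control arrays, and the log2 fold change of strong against control was −0.48 (SE 0.29). *dod-22* (F55G11.5) went the other way, with 4.88, 4.51, 4.20 and 4.29 in control, 5.31, 4.92, 4.66 and 4.42 under mild RNAi, and 5.63, 4.91, 5.18 and 4.24 under strong RNAi. Its groups overlapped, and the log2 fold change was 0.52 for strong and 0.36 for mild against control (SE 0.28 each). All 3 *dod* genes lie on chromosome IV.

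The probe sets shared by *dod-21* and *cld-1* cannot be assigned to either gene. The brighter ran from 3.11 to 4.62 in control, from 2.95 to 4.81 under mild and from 3.43 to 5.02 under strong RNAi, with a log2 fold change of 0.43 (SE 0.45) for strong against control. The dimmer stayed between 2.01 and 2.98 on all arrays. Neither probe set separated the groups.

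Across all 29317 probe sets limma called 5.62% lower and 8.04% higher in strong against control, 4.34% lower and 5.82% higher in strong against mild, and 0.00341% lower and 0.0136% higher in mild against control. Of the 7 genes, 2 were called lower in strong against control (*irg-5* and F55G11.2), 1 in strong against mild (F55G11.2) and 0 in mild against control. None of the 7 was called higher in any of the 3 comparisons. At an unadjusted p under 0.05 the numbers in either direction were 4 of 7 in strong against control, 5 of 7 in strong against mild and 0 of 7 in mild against control, where 27.4%, 23.9% and 3.34% of all probe sets did so. Nothing is read from these shares, since the genes were selected on these arrays. The median log2 fold change over the 7 genes was −1.35 for strong against control, −1.26 for strong against mild and −0.17 for mild against control, beside −0.053, −0.043 and 0.0015 over all probe sets.

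Groups that did not overlap gave the same names, read from the same values as the calls. All strong arrays lay below all control arrays for 2 of the 7 genes, *irg-5* and F55G11.2, and below all mild arrays for 1, F55G11.2, where 8.51% and 7.15% of all probe sets did so. No gene of the 7 had every mild array below every control array, which 1.08% of probe sets had. The call of *irg-5* against control was lost without control array III or IV and without strong array III or V, with log2 fold changes between −3.85 and −3.29, and F55G11.2 was then the only gene called. Without strong array IV, 4 genes were called lower, as *irg-4* (−2.09) and *dod-24* (−1.65) then passed as well. F55G11.2 kept its call in both comparisons under all 21 alternatives. These refit the arrays on which the genes were chosen, so they show how the call depends on the processing and do not test the gene.

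**Figure D2:**
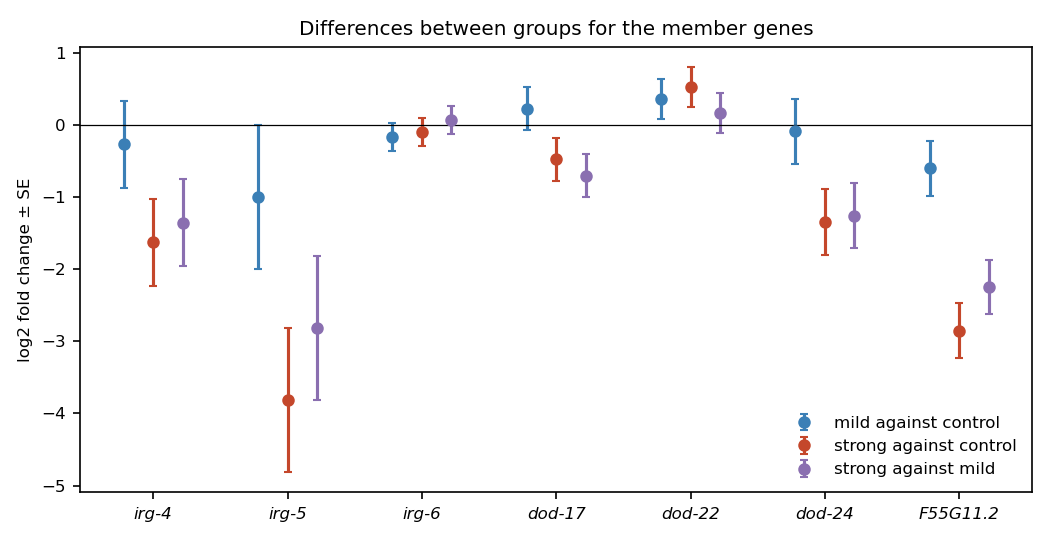
Log2 fold change with its SE (vertical axis) of each of the 7 measured genes for mild against control, strong against control and strong against mild *nuo-5* RNAi (n = 4 arrays per group). *irg-5* (−3.82) and F55G11.2 (−2.85) lie lowest for strong against control, and the mild differences range from −0.99 for *irg-5* to 0.36 for *dod-22*.

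Mild RNAi gave small differences, and several of them rested on 1 array. Of the 7 genes 5 had a lower mild than control mean, and in the same number of genes mild array III was the lowest of its group (*irg-4*, *irg-5*, *irg-6*, *dod-24* and F55G11.2). Without that array the log2 fold change of mild against control went from −0.99 to 0.047 for *irg-5*, from −0.27 to 0.32 for *irg-4* and from −0.092 to 0.097 for *dod-24*. F55G11.2 stayed lower, between −0.78 and −0.36 when any single array was left out.

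The replicate numbers were taken to pair mild and control arrays, and the differences within these pairs were read as well, although the groups overlapped. F55G11.2 was lower in the mild array of all 4 pairs, with log2 differences of −0.33, −1.39, −0.25 and −0.44 for numbers I, III, IV and V. *dod-22* was higher in all 4, by 0.43, 0.42, 0.46 and 0.12, and so was *dod-17*, by 0.11, 0.055, 0.65 and 0.086. The other 4 genes had pairs of both signs. A fit of the mild and control pairs alone was not run. With the replicate number as a block over all 12 arrays, strong ones included, none of the 7 was called in mild against control.

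For 6 of the 7 genes the spread within groups stood at percentile 78.3 or higher among probe sets with a mean above the 40th percentile. The pooled SD within groups was 1.66 for *irg-5*, higher than for 99.9% of the 17510 probe sets with a mean above the 40th percentile, whose median SD was 0.29. *irg-4* (1.00), *dod-24* (0.74) and F55G11.2 (0.61) stood at percentiles 98.8, 95.7 and 91.7, and *dod-17* (0.47) and *dod-22* (0.44) at 82.2 and 78.3. The dim *irg-6* (0.29), whose own mean lies below the 40th percentile, stood at percentile 51.2. The same arrays tended to be low or high. Under strong RNAi array V was the lowest for 4 genes (*dod-17*, *dod-22*, *dod-24* and F55G11.2) and array III for 2 (*irg-4* and *irg-5*), while array I was the highest for 5.

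These shared deviations did not run through all 7 genes alike. After subtraction of the group means, Pearson's r over the 12 arrays was 0.81 between *irg-4* and *irg-5*, 0.85 between *dod-17* and *dod-22* and 0.82 between *dod-24* and F55G11.2. Between the first and second of these pairs it was near 0 or negative, from −0.30 (*irg-4* with *dod-17*) to 0.14 (*irg-5* with *dod-22*). For F55G11.2 it was 0.39 with *irg-4*, 0.63 with *irg-5*, 0.71 with *dod-17* and 0.76 with *dod-22*. Of the 21 pairs of genes 10 had an r above 0.5 and 5 an r below 0. Array I was the highest for *dod-17* and *dod-22* in each of the 3 groups, and array IV for *irg-4*. These correlations describe 12 arrays, on which all genes share the hybridization and the normalization, and no test is attached to them.

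Markers of tissues and stage were set beside these values. The summed level (log2 of the summed linear values) of the 12 intestinal markers was 13.28 to 13.91 in control, 13.41 to 13.91 under mild and 13.83 to 14.04 under strong RNAi. Of these markers 3 rose under strong RNAi (*elt-2*, *vha-6* and *mtl-2*), 1 fell (*lbp-6*, log2 fold change −0.65) and 8 did not pass. Of the 8 adult yolk, cuticle and eggshell genes 6 rose, and their summed level was 8.60 to 9.11 in control, 8.57 to 9.09 under mild RNAi, and 12.16, 8.29, 12.66 and 11.69 on the strong arrays in the order used above. Strong arrays III and V, on which *irg-4*, *irg-5*, *dod-24* and F55G11.2 were lowest, had the lowest and the second lowest summed adult level of the group. That of array III lay below all control arrays, while that of array V lay above them and near that of array I. *dod-22* was also lowest on arrays III and V, but *dod-17* and *irg-6* were not. No relation between these ranks was tested. Body muscle genes fell in 3 of 6, hypodermal genes in 1 of 4 and germ line genes in 2 of 6, with 1 germ line gene rising, and neuronal genes rose in 3 of 8. Of 5 pharyngeal genes 1 rose. The part of these shifts in the differences of the CUB-like genes was not tested.

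Most of these genes lie close together on chromosome IV. In the gene order of the WBcel235 annotation, 21 protein-coding genes run from *irg-6* to *dod-17*, and 6 of them belong to the set. *irg-4* lies elsewhere on the same chromosome and *irg-5* on chromosome V. Of the 12 other measured genes of this stretch 1 rose under strong RNAi and 11 did not pass. The one that rose was F55G11.7, with 3.30, 3.83, 3.65 and 3.23 in control, 5.48, 4.01, 4.35 and 3.88 under mild RNAi, and 5.67, 5.98, 4.60 and 5.00 under strong RNAi (log2 fold change 1.81, SE 0.36, limma adjusted p = 0.0063). The immediate neighbours F55G11.2 and *dod-22* differed in opposite directions, at −2.85 and 0.52.

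**Figure D3:**
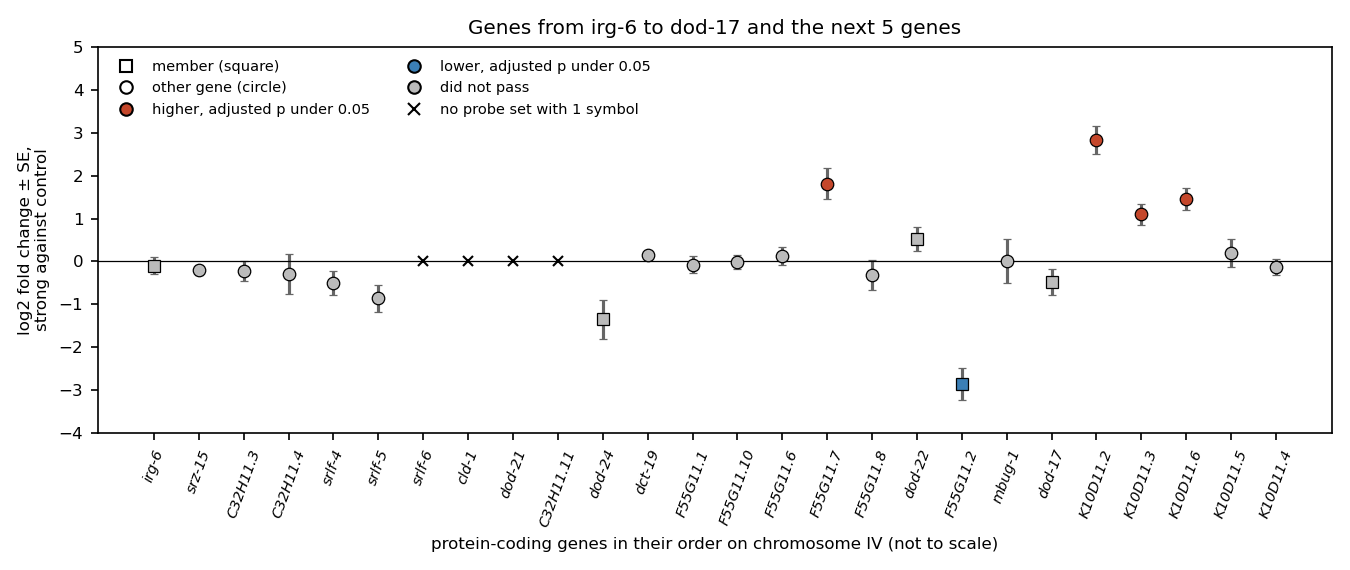
Log2 fold change with its SE (vertical axis) of strong *nuo-5* RNAi against control for the protein-coding genes from *irg-6* to *dod-17* and the next 5 genes in their order on chromosome IV (horizontal axis, not to scale); squares are genes of the set, circles other genes, and crosses genes without a probe set of 1 symbol. F55G11.2 (−2.85) lies lowest, and F55G11.7 (1.81) and K10D11.2 (2.84) lie highest.

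Genes on the 5 cosmid clones that hold the set were counted as neighbours. Of 31 measured neighbours 5 rose under strong RNAi, 2 fell and 24 did not pass, and their median log2 fold change was −0.093. The largest fall was that of F35E12.6, next to *irg-5*, at 8.06, 8.42, 7.94 and 7.80 in control, 7.74, 7.37, 8.03 and 7.95 under mild RNAi, and 6.93, 6.44, 6.08 and 5.45 under strong RNAi (log2 fold change −1.83, SE 0.27, adjusted p = 0.0014). On its other side F35E12.9 rose (log2 fold change 1.76, SE 0.45, adjusted p = 0.022), although strong array III, at 4.60, lay below control array I, at 4.74. This call was lost without control array IV (1.52) and without strong array IV (1.55) or V (1.40), with adjusted p between 0.062 and 0.069, and in a fit of the 8 arrays compared (adjusted p = 0.056). K10D11.2, next to *dod-17*, rose (log2 fold change 2.84, SE 0.33, adjusted p = 0.00038), with control arrays between 2.41 and 2.68, under the 40th percentile, and strong arrays between 4.33 and 6.39, so that the size of this fold is poorly resolved.

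Of 11 other genes with *irg* and *dod* names 4 rose under strong RNAi, 2 fell and 5 did not pass, and the median log2 fold change was 0.43. *irg-1*, which depends on the transcription factor ZIP-2 rather than on PMK-1, measured 5.36, 4.54, 4.51 and 4.38 in control and 6.92, 6.34, 7.65 and 7.43 under strong RNAi, without overlap (log2 fold change 2.38, SE 0.30, adjusted p = 0.00057). *dod-20* rose by 2.39 (SE 0.44, adjusted p = 0.0048). *dod-19* (1.54, SE 0.37) and *irg-2* (1.46, SE 0.35) also rose, both with an adjusted p of 0.016. Without strong array IV or V the call of *dod-19* was lost, at 1.42 and 1.39. *irg-3* fell by 1.55 (SE 0.31, adjusted p = 0.0065), with control arrays between 7.65 and 8.53 and strong arrays between 5.84 and 7.22. *irg-8* fell by 1.17 (SE 0.33, adjusted p = 0.034), and lost its call without control array I, III or V or strong array III or V, without all arrays numbered III (−0.78) and when the arrays were quantile normalized again (−1.06, adjusted p = 0.051). Under mild RNAi none of the 11 passed.

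**Figure D4:**
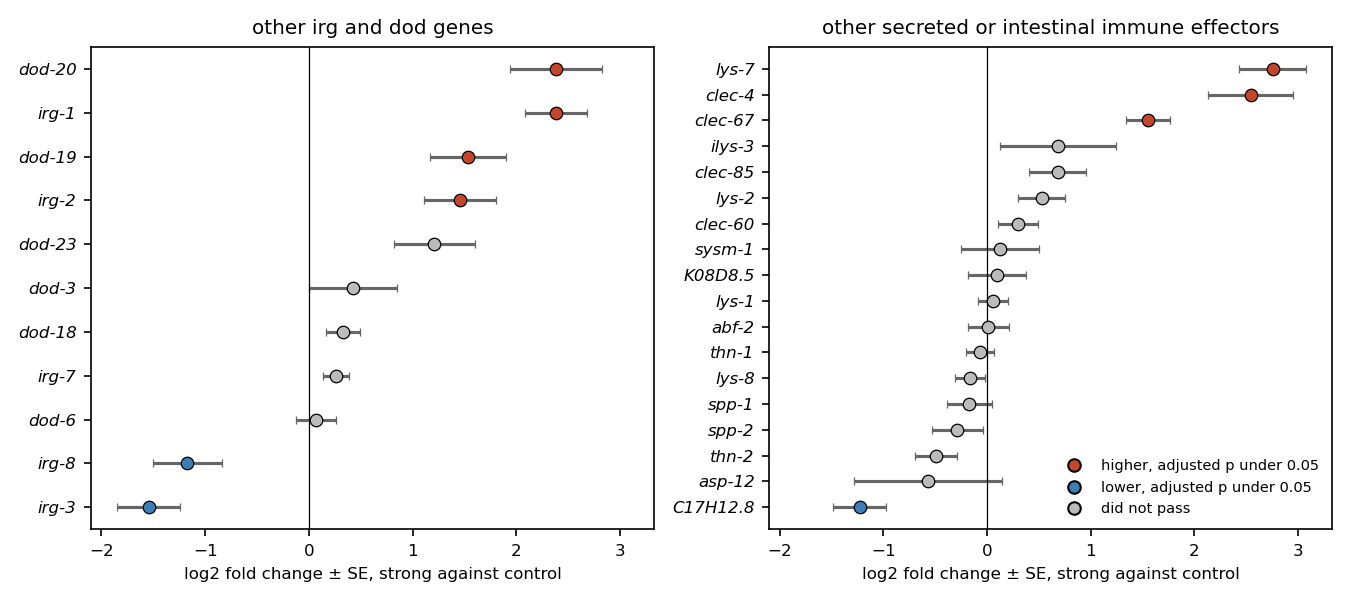
Log2 fold change with its SE (horizontal axes) of strong *nuo-5* RNAi against control for 11 other *irg* and *dod* genes (left) and 18 other intestinal immune effector genes (right), coloured by whether the limma adjusted p was under 0.05. On the left 4 rose and 2 fell, and on the right 3 rose and 1 fell.

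Other secreted or intestinal effectors mostly did not pass. Of 18 measured genes 3 rose, 1 fell and 14 did not pass, with a median log2 fold change of 0.075. The lysozyme gene *lys-7* rose by 2.75 (SE 0.33, adjusted p = 0.00042), and the C-type lectin genes *clec-4* and *clec-67* by 2.54 (SE 0.41, adjusted p = 0.0022) and 1.55 (SE 0.22, adjusted p = 0.001). C17H12.8 fell by 1.23 (SE 0.26, adjusted p = 0.0084). Of the others, *sysm-1* (T24B8.5) stood at 0.12 (SE 0.38) and K08D8.5 at 0.094 (SE 0.28).

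The transcripts of the regulators moved upward or did not pass, and none fell. Of 8 measured p38 pathway genes 4 rose and 4 did not pass. The phosphatase gene *vhp-1*, which opposes the MAP kinases, rose by 1.50 (SE 0.21, adjusted p = 0.00098), *tir-1* by 0.78 (SE 0.11, adjusted p = 0.0014), *skn-1* by 0.69 (SE 0.15, adjusted p = 0.0095) and *atf-7* by 0.68 (SE 0.11, adjusted p = 0.0023). The kinase genes *pmk-1*, at 0.42 (SE 0.13, adjusted p = 0.054), and *sek-1*, at 0.47 (SE 0.18, adjusted p = 0.11), did not pass, and *nsy-1* has no probe set of its own. Against mild RNAi 6 of the 8 rose and 2 did not pass. There *pmk-1* rose by 0.51 (SE 0.13, adjusted p = 0.028) and *pmk-2* by 0.66 (SE 0.16, adjusted p = 0.024), while *sek-1* did not pass. Of 9 insulin pathway genes 3 rose, namely the receptor gene *daf-2* (1.09, SE 0.17), *daf-16* (1.02, SE 0.12) and *pqm-1* (0.78, SE 0.16), a zinc finger factor that acts on the genes repressed when DAF-16 is active. Of 12 other regulators of intestinal immunity 7 rose, and the largest differences were those of *sta-2* (1.59, SE 0.27), the intestinal GATA factor gene *elt-2* (1.57, SE 0.25), the nuclear receptor gene *nhr-8* (1.44, SE 0.24) and the receptor gene *fshr-1* (0.85, SE 0.17). Of 7 targets that DAF-16 activates, 3 rose, the metallothionein gene *mtl-1* (4.02, SE 0.63), the superoxide dismutase gene *sod-3* (1.42, SE 0.24) and the ferritin gene *ftn-1* (1.12, SE 0.26). These are transcript levels, and the activity of the proteins was not measured.

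Genes whose pattern over the 12 arrays was most like the mean of the 7 were taken from 15343 other genes above the 40th percentile. The closest by Pearson's r were the aspartyl protease gene *asp-14* (r = 0.94), F58A4.2 (0.91), *ugt-9* (0.91), F10E7.2 (0.90), *nono-1* (0.90), F35E12.6 (0.90), T07F10.5 (0.90) and *acdh-12* (0.89). *asp-14* ran from 8.49 to 8.62 in control, from 7.38 to 9.33 under mild and from 5.18 to 7.91 under strong RNAi. The others were likewise lower on average under strong RNAi, with log2 fold changes between −1.83 and −0.34. When only the deviations from group means were compared, the closest were *abhd-12* (r = 0.93), K11D2.1 (0.91), F53H1.3 (0.90), *ttr-7* (0.89), K03H1.9 (0.88), *asp-14* (0.87), *cest-35.1* (0.86) and *lido-8* (0.86). Only *asp-14* was in both lists. The genes were picked for their likeness, and no test is attached to them.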

How the data were processed

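Whole-worm RNA was measured on the *C. elegans* Gene ST array of Affymetrix (version 1.0 per the study's methods, 2.0 per the labels). The authors normalized the scans by RMA (named in the submitters' processing notes), and the deposited values are log2 intensities of 29317 probe sets on 12 arrays, with no missing value. 5 replicates were collected and 4 per group are analysed here. The study's reporting summary states that a replicate was left out because it differed strongly from the others. The spread between the arrays kept may therefore be understated. The number of arrays limits the precision. Nothing states a genome build for the probe sets. Gene symbols came from the platform annotation, updated through a RefSeq gene table (WBcel235), which matched 25495 of the 25546 probe sets with 1 symbol and gave gene order only.

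A linear model of 3 group means was fitted to all probe sets in limma 3.58.1 (R 4.3.3) with empirical Bayes moderation. P-values were adjusted by Benjamini-Hochberg across the whole table, and 0.05 was the threshold. The procedure was run on simulated data with noise independent between probe sets and arrays. That run therefore does not cover the deviations shared between genes or arrays described above. Fold changes are differences of group means. The labels call the replicates biological without naming separate cultures, and p-values measure only the spread between these samples, which may be partly technical. Genes were named by a rule: all of the set, up to 4 past the threshold with the largest change from each list, regulators where described, and the 8 most alike. *irg-2* and *irg-8*, which passed with smaller changes, were named beyond this rule. The genes and lists were chosen with earlier results of these data known.

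Alternatives were a replicate block, only the 8 arrays compared, repeated quantile normalization, median centring, a filter on dim probe sets (those kept exceed the 40th percentile, 3.01, on 4 or more arrays), restriction to probe sets of 1 symbol, an intensity trend with robust estimation, a threshold of 0.01 and leaving out each array. The arrays numbered III were left out together after the data were seen. Deviations from group means over all probe sets correlated between arrays of the same number at 0.20 to 0.34 for mild and control, so these numbers were taken to pair those arrays. For strong and control (0.00 to 0.31) and strong and mild (0.04 to 0.23) not every pair passed 0.1. No sequences were used.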

Additional observations from a re-analysis of the deposited data

How the results depend on the processing

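Calls among these genes are a description here too, since the genes were chosen on these arrays. The count of genes called lower in strong against control was 2. It was 1 at a threshold of 0.01 and ranged from 1 to 4 when single arrays were left out. In strong against mild it was 1, and was 3 with a replicate block, 2 without the arrays numbered III and 1 to 3 without single arrays. With the replicate block, *irg-4* passed in both comparisons (−1.63 and −1.36) and *irg-5* in strong against mild (−2.82). With it, 3 genes were lower in strong against control. Deviations on same-numbered arrays correlated unevenly where a strong array was involved, at 0.00 to 0.31 with control and 0.04 to 0.23 with mild. Whether the numbers pair the strong arrays is therefore not settled. The block was fitted over all 12 arrays, strong ones included. In mild against control, where the numbers were taken as a pairing, it changed no call of these genes, with 0 called. It ended that of *nuo-5* (adjusted p = 0.15). Without strong array I, *irg-5* (−3.47) and *dod-24* (−1.59) passed against mild, and without mild array III, *irg-4* (−1.95) and *irg-5* (−3.86).

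Signs turned only for values that had not passed. Leaving out single arrays, *irg-6* ran from −0.24 to 0.036 in strong against control and from −0.055 to 0.17 in strong against mild, *dod-22* from −0.049 to 0.41 in the latter, and in mild against control *irg-4* ran from −0.62 to 0.32, *irg-5* from −1.56 to 0.047 and *dod-24* from −0.26 to 0.11. Without the arrays numbered III, *irg-6* stood at 0.038 in strong against control, 0.091 in mild against control and −0.053 in strong against mild, and in mild against control *irg-4* was 0.14, *irg-5* 0.0090 and *dod-24* 0.30. Of 28 other genes named with a call in strong against control, 23 kept it under all 21 alternatives, and *pmk-1* passed without dim probe sets (adjusted p = 0.048) and without mild array V (adjusted p = 0.035). The mean over several probe sets was not run, since each measured gene has 1. All probe sets called in mild against control numbered 5, and 0 to 4 under the alternatives. The dim probe sets of *irg-6* and the shared ones of *dod-21* limit what can be said of both genes.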

Other observations

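F55G11.7, between *dod-24* and *dod-22* on chromosome IV, was singled out after its values were seen. Its mild arrays (3.88 to 5.48) lay above its control arrays (3.23 to 3.83), with a log2 fold change of 0.92 (SE 0.36, unadjusted p = 0.023, limma adjusted p = 1.00), so it did not pass the correction. Against the mild group the strong group stood 0.89 higher (SE 0.36, adjusted p = 0.15).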
